A study of Homo sapiens with 12 samples.

Results

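Antagonists, ligands and target genes of the WNT pathway were examined as a set of 10 genes: FRZB, SFRP1, DKK1, DKK3, WNT5A, WNT7B, RSPO3, LGR5, AXIN2 and TCF7. They were found on the arrays by gene name among the probes that are not controls, which gave 16 of the 50599 probes. Of the 10 genes, 9 had a probe that 3 or more of the 12 arrays measured well above background, and these entered the comparisons, out of 24857 genes tested. The remaining gene, LGR5, was measured well above background by none of the arrays (0 of 12). The set was chosen on measured values in part: FRZB was put forward with its change after premiR-197 in view, and whether the levels in the cell lines were also in view is not recorded, so both the change after premiR-197 and the levels by line are given as descriptions with no test.

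The arrays read messenger RNA of lung adenocarcinoma cells: A549, PC14, and PC14CDDP, a derivative of PC14 that resists cisplatin (CDDP). Each line was transfected at 25 nM with premiR-197, a precursor that supplies miR-197, with its control AllStar-NC, with LNA-miR-197, a blocker of the miRNA built of locked nucleic acid, or with its control LNA-miR-NC. All 12 cultures received DharmaFECT 1, and 100 ng of RNA from each was hybridized to 1 one-colour Agilent array, to look for genes that respond to miR-197 in all 3 lines. A line received each transfection once, so the lines served as the replicates of a transfection, and the 4 arrays of a line are cultures of 1 line with different oligonucleotides.

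Levels are on the log2 scale, as the processed signal over the array's own 75th percentile, so 0 stands for a probe as bright as that percentile, which lay between 613 and 719 signal units. Well above background is the call of the scanner software for a spot. No spot was saturated (0 on each array). A549 occupied slide 1, and slide 2 carried PC14 and PC14CDDP, so a difference between A549 and the other lines cannot be told apart from the slide. A given transfection sat in 1 slide column throughout, and column and transfection cannot be told apart either. KRT8 and KRT18, keratins of simple epithelia, were well above background on all 4 arrays of each line, as was VIM, the mesenchymal filament protein vimentin. The epithelial adhesion genes CDH1 and EPCAM were well above background on 4 of 4 A549 arrays, on 2 and 3 of 4 PC14 arrays, and on 0 of 4 PC14CDDP arrays. Of the lung lineage markers, NKX2-1 was well above background on 0 of 4 A549 arrays and on 4 of 4 arrays of each other line, SFTPB on 0 of 4 in each line, and NAPSA on 4 of 4 in each, at -2.83, -4.44 and -5.2 in A549, PC14 and PC14CDDP. Of the fibroblast markers, COL1A2 and DCN were not above background on any array (0 of 4 in each line), whereas COL1A1 was on 4 of 4 in each, at -0.98 in A549, -3.48 in PC14 and -4.13 in PC14CDDP. Of the leukocyte and endothelial markers, PTPRC, CD14, VWF and CDH5 were well above background on 4 of 4 arrays of each line, at mean levels from -4.36 to 0.82, CD3E on 3, 2 and 2 of 4 and PECAM1 on 1, 4 and 0 of 4 arrays of A549, PC14 and PC14CDDP, and the part of these differences in the results by line was not tested. In these bulk samples, fewer cells with a transcript and less of it per cell cannot be told apart.

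WNT ligands bind Frizzled receptors together with LRP co-receptors, which stabilizes β-catenin and lets it act with TCF and LEF factors on target genes. Secreted frizzled-related proteins bind the ligands themselves, Dickkopf proteins act on the co-receptor, and R-spondins sustain signaling by keeping Frizzled receptors at the surface through LGR receptors. In lung adenocarcinoma the pathway is known for its links with tumor growth and with metastasis.

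The mature sequences of miR-197 are shown because premiR-197 supplies, and LNA-miR-197 blocks, this miRNA. The labels do not say which arm premiR-197 supplies. Both are given 5′ to 3′ from RefSeq, with the seed, bases 2 to 8, in capitals. The arms lie on the plus strand of chromosome 1 of GRCh38.p14, at 109598901 to 109598923 and at 109598940 to 109598961.
hsa-miR-197-5p: cGGGUAGAgagggcagugggagg
hsa-miR-197-3p: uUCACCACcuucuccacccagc

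Where a gene has several probes, a value belongs to the transcript stretch that its probe reads. The first 30 of the 60 bases are shown, in lower case with nothing marked, for the probes of FRZB, DKK3, TCF7 and RSPO3. Those of the other genes are not shown. Coordinates of probes follow the deposited files (hg19). The exon or UTR in which each probe lies was not analysed here.
FRZB, A_23_P363778, chr2:183699620-183699679, minus strand: agcttcgtcatcttggactcagtaaaagtg
DKK3 main probe, A_24_P261417, chr11:11984915-11984974, minus strand: ggtaattgtagggcgaggattataaatgaa
DKK3 other probe, A_33_P3261293, chr11:11986163-11986222, minus strand: tgtatgtgtgcaagccgaccttcgtgggga
TCF7 main probe, A_23_P7582, chr5:133483237-133483296, plus strand: cccagaaaacctccagtagtggacaacagg
TCF7 other probe, A_33_P3250671, chr5:133478508-133478567, plus strand: agccaaggtcattgcagagtgcacacttaa
RSPO3 main probe, A_24_P106542, chr6:127476517-127476576, plus strand: tgtcccccaacaaatgagacaagaaagtgt
RSPO3 other probe, A_23_P111402, chr6:127518034-127518093, plus strand: gtcatgtgttttctttctcaatgagggaaa

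**Figure D1:**
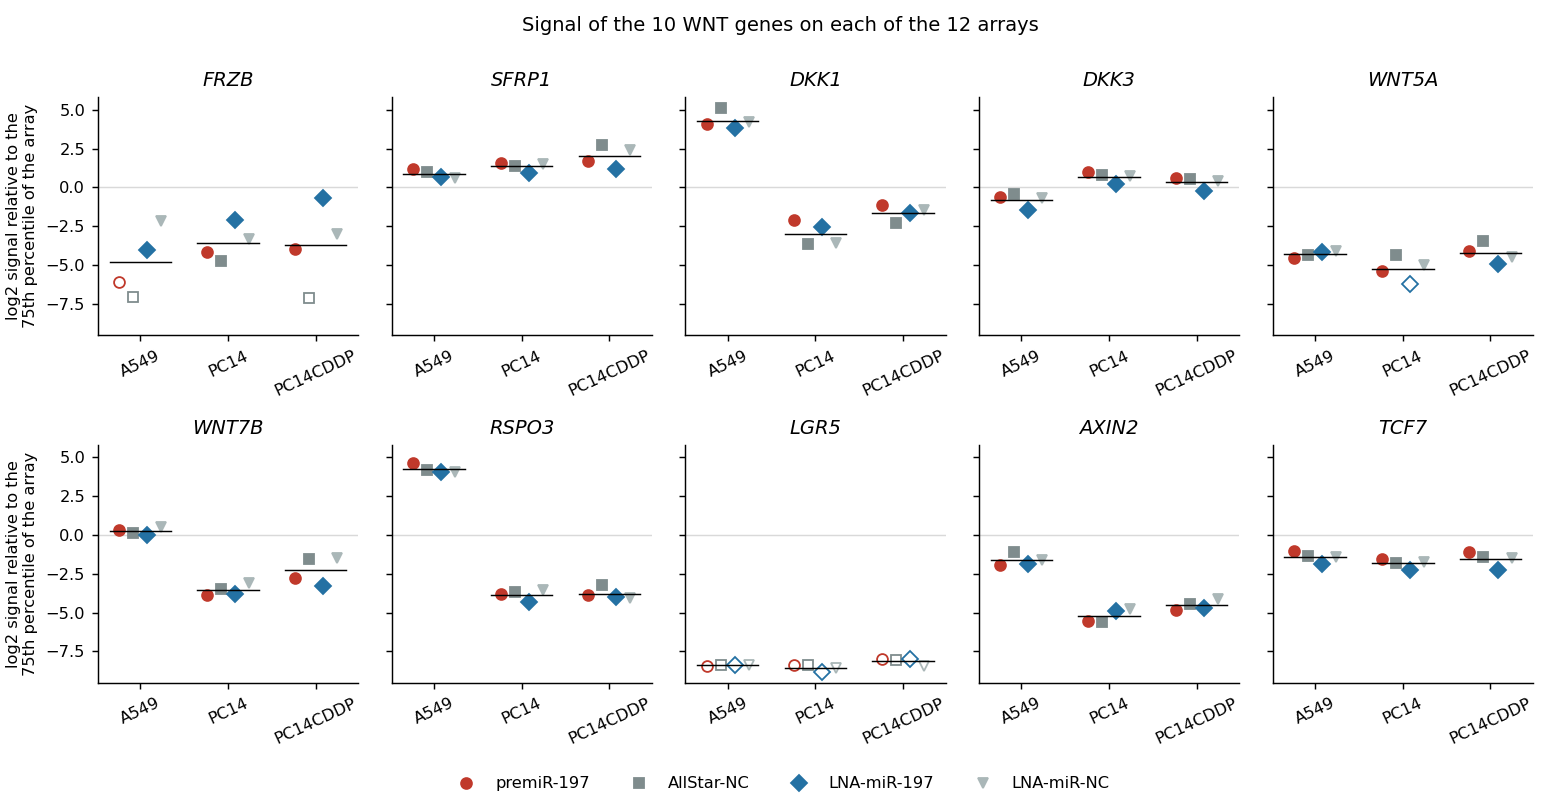
Log2 level, as signal over the array's 75th percentile (y axis), for the 10 WNT genes in A549, PC14 and PC14CDDP (x axis), with 1 point for each array, shaped by transfection, and a line at the mean of the 4 arrays. Open points were not well above background. DKK1, RSPO3, WNT7B and AXIN2 lie higher on all A549 arrays than on any PC14 or PC14CDDP array, and LGR5 has only open points.

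RSPO3, DKK1, WNT7B and AXIN2 stood far higher in A549 than in the other lines. DKK3 was lower in A549 than in PC14, while the line means of SFRP1 and TCF7 lay closer together. The main probes of all these genes were well above background on all 12 arrays. For 5 of the 9 genes the 4 arrays of A549 and the 4 of PC14 did not overlap, 4 being higher and 1 lower in A549. The same held for 58.5% of all genes tested (30.6% higher and 28.0% lower), so this count is close to the background. Between PC14CDDP and A549 the arrays did not overlap for 6 of the 9 genes, 2 higher and 4 lower in PC14CDDP, beside 56.1% of all genes (27.0% higher and 29.0% lower). Between PC14CDDP and PC14, which share a slide, they did not overlap for 0 of 9, beside 36.0% of all genes.

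Among the antagonists, FRZB, also called SFRP3, is a secreted Frizzled-related protein that binds WNT ligands. Its level was -6.10 after premiR-197, -7.03 after AllStar-NC, -4.01 after LNA-miR-197 and -2.19 after LNA-miR-NC in A549. In PC14 the values in the same order were -4.18, -4.75, -2.08 and -3.30, and in PC14CDDP they were -3.94, -7.11, -0.65 and -3.01. The premiR-197 and AllStar-NC arrays of A549 and the AllStar-NC array of PC14CDDP were not well above background, which leaves 9 of 12 arrays. In each line both LNA arrays lay above both other arrays, a pattern seen in 1 of the 9 genes and in 2.75% of all genes tested. FRZB was put forward on a change measured against these AllStar-NC arrays, so the pattern is a description. The reverse, both LNA arrays below both others in each line, was seen in 1 of the 9 genes, DKK3, and its share of all genes is not given here. The line means were -4.83 ± 2.17 for A549, -3.58 ± 1.16 for PC14 and -3.68 ± 2.67 for PC14CDDP (SD, n = 4), and the arrays of all 3 lines overlapped.

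SFRP1, another secreted Frizzled-related protein, averaged 0.86 ± 0.28 in A549, 1.35 ± 0.29 in PC14 and, at the top, 2.01 ± 0.68 in PC14CDDP (SD, n = 4). A549 arrays ran from 0.59 to 1.18, PC14 arrays from 0.93 to 1.58, and PC14CDDP arrays from 1.21 to 2.73. Neighbouring lines in this order overlapped, while the highest A549 array lay just below the lowest PC14CDDP array. Its probe is spotted 10 times on each array, and the SD of these spots was 0.03 to 0.06, which is the precision of 1 array and not the spread between cultures.

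DKK1, a Dickkopf protein that blocks LRP co-receptors and is itself a target of the pathway, differed widely between the lines. Its level was 4.10, 5.12, 3.82 and 4.21 in A549 after premiR-197, AllStar-NC, LNA-miR-197 and LNA-miR-NC. It was -2.11, -3.64, -2.54 and -3.60 in PC14, and -1.10, -2.32, -1.63 and -1.48 in PC14CDDP, in the same order. All A549 arrays were far above all others, whereas those of PC14 and PC14CDDP overlapped. The mean was higher in A549 than in PC14 by 7.28 on the log2 scale (SE 0.42), a 156-fold difference, and higher in PC14CDDP than in PC14 by 1.34 (SE 0.42).

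DKK3, a Dickkopf relative that does not bind the LRP co-receptors in the way DKK1 does, had the opposite order. The A549 values were -0.60, -0.40, -1.47 and -0.65, the PC14 values 1.02, 0.77, 0.22 and 0.75, and the PC14CDDP values 0.60, 0.57, -0.22 and 0.44, with the transfections ordered as above. The A549 arrays lay below all PC14 and PC14CDDP arrays, which overlapped with each other. The difference of A549 from PC14 was -1.47 (SE 0.10). The other DKK3 probe put the lines in the order A549, PC14, PC14CDDP, with means of -3.50, -2.08 and -1.86, and its highest value in PC14CDDP came from the LNA-miR-197 array (-0.21, beside -2.30, -2.47 and -2.46 on the others).

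Of the ligands, WNT5A, which signals largely without β-catenin, was near the detection limit. Its means were -4.26 ± 0.20 for A549, -5.23 ± 0.79 for PC14 and -4.22 ± 0.63 for PC14CDDP (SD, n = 4), and it was well above background on 11 of 12 arrays, the LNA-miR-197 array of PC14 being the exception. The lines overlapped. WNT7B, a canonical ligand of lung epithelium, averaged 0.26 ± 0.23 in A549, but -3.57 ± 0.34 in PC14 and -2.29 ± 0.92 in PC14CDDP. All A549 arrays (0.02 to 0.54) lay above those of PC14CDDP (-3.32 to -1.46) and PC14 (-3.89 to -3.12), and the last 2 lines overlapped. The difference between A549 and PC14 was 3.82 (SE 0.28), or 14.2-fold.

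The main WNT7B probe was higher in PC14CDDP than in PC14 by 1.28 (SE 0.28), and the other WNT7B probes measured no order of these lines. One of them, A_33_P3248903, stayed at background on all 4 arrays of PC14 and all 4 of PC14CDDP, so that A549 was at least 14.6-fold higher than PC14 and at least 10.8-fold higher than PC14CDDP. The other, A_24_P911607, was well above background on 3 of 4 PC14 arrays and 0 of 4 PC14CDDP arrays, and A549 was at least 21-fold higher than PC14CDDP. Such bounds set the mean of the brighter line against the mean of the higher, on each array, of the dim probe and the dimmest probe still well above background.

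RSPO3, an R-spondin that amplifies WNT signaling, showed the widest difference of the set. The A549 arrays read 4.64, 4.19, 4.07 and 4.05, those of PC14 -3.83, -3.70, -4.33 and -3.57, and those of PC14CDDP -3.87, -3.25, -4.01 and -4.09. The A549 arrays lay far above the rest, and PC14 and PC14CDDP overlapped almost fully. A549 exceeded PC14 by 8.10 on the log2 scale (SE 0.20), or 274-fold, while PC14CDDP and PC14 differed by 0.05 (SE 0.20). On the other RSPO3 probe, well above background on 0 of 4 arrays of each of the latter lines, A549 was at least 1076-fold higher than PC14 and at least 808-fold higher than PC14CDDP.

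LGR5, an R-spondin receptor and stem cell marker, lay between -8.84 and -7.97 on all 12 arrays. It was not well above background on any of them, so it has no fold and entered no count. AXIN2, a scaffold of the complex that degrades β-catenin and a widely used target gene of the pathway, averaged -1.62 ± 0.38 in A549, but -5.21 ± 0.42 in PC14 and -4.54 ± 0.32 in PC14CDDP (SD, n = 4). Its A549 arrays (-1.92 to -1.08) lay above all others, and those of PC14 (-5.63 to -4.80) and PC14CDDP (-4.85 to -4.13) overlapped. AXIN2 was 12-fold higher in A549 than in PC14, where its signal was near the detection limit, a log2 difference of 3.59 (SE 0.23). With normexp background correction the log2 differences of A549 from PC14 were smaller, at 1.92 for AXIN2, 2.90 for WNT7B, 7.01 for RSPO3 and 6.48 for DKK1, with the same direction. The other AXIN2 probe had the same order, with means of -2.00, -5.32 and -4.52.

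TCF7, which encodes the DNA-binding partner of β-catenin TCF1, differed little between lines. Its means were -1.42 ± 0.36 for A549, -1.83 ± 0.29 for PC14 and -1.57 ± 0.49 for PC14CDDP (SD, n = 4), and all 3 lines overlapped. Its probe is also spotted 10 times, with an SD between spots of 0.04 to 0.12.

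Since 4 of the genes were higher in A549, the promoters in the RefSeq table, 250 bases before to 50 after each start site, were searched for CTTTGA on both strands (TCAAAG on the opposite one), the core letters that TCF and LEF factors are known to bind. An entry existed for 7 of the 10 genes, of which 1 (14.3%) held the motif, DKK1. The motif was found in 12.9% of all 35116 promoters, so this share is close to the background, and in 6 of 91 promoters of other WNT genes. The DKK1 matches are shown in capitals, on the plus strand of GRCh38.p14, and a match is not a measured site.
DKK1, chr10:52314174-52314203: cccctcccagcgCTTTGAaatcccatcccg
DKK1, chr10:52314120-52314149: gggtgaagagtgTCAAAGgccccccttcat

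**Figure D2:**
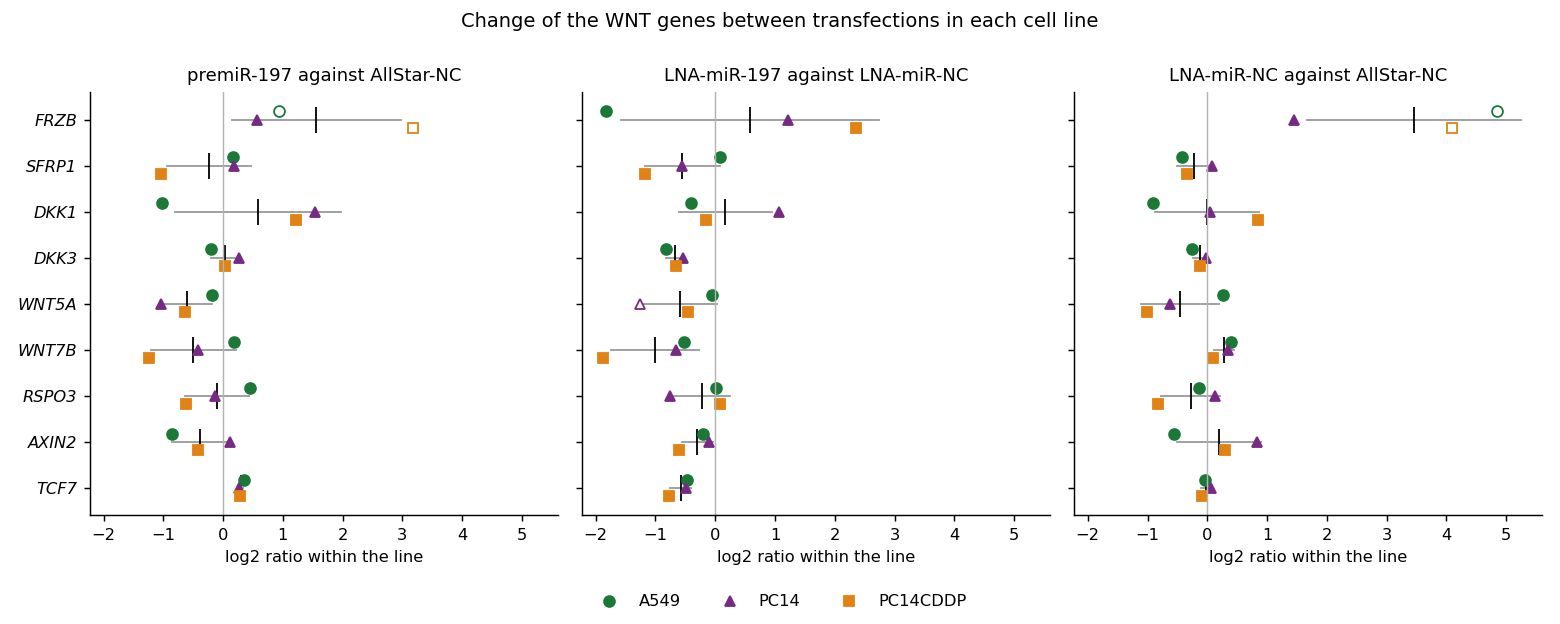
Log2 ratios within each line (x axis) of the 9 WNT genes measured (y axis) in the comparisons of premiR-197 with AllStar-NC, LNA-miR-197 with LNA-miR-NC, and LNA-miR-NC with AllStar-NC, with 1 point for each line, a tick at the mean and a bar of 1 SD over the 3 lines. Open points rest on at least 1 array not well above background. DKK3 and TCF7 lie below 0 in all 3 lines after LNA-miR-197, and FRZB lies above 0 in all 3 lines in both comparisons with AllStar-NC.

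After premiR-197, TCF7 was higher than after AllStar-NC by at least 1.2-fold in each of the 3 lines. FRZB met the same rule on its readings, which makes 2 of the 9 genes, but both its A549 arrays were below background, so that its ratio was measured in PC14 and bounded in PC14CDDP only. FRZB was put forward on this same change, so its place in the count is a description and no result. TCF7 alone of the other genes met the rule. None of the 9 genes was lower by the rule (0), and of all genes tested 3.87% were higher and 4.94% lower. The levels of FRZB given above correspond to log2 ratios of 0.94 for A549, 0.57 for PC14 and 3.17 for PC14CDDP (mean 1.56 ± 1.41, SD, n = 3), a mean that fell to 0.22 with normexp background correction and to 0.75 without PC14CDDP. The A549 arrays give no fold, the PC14 ratio was 1.48-fold, and in PC14CDDP, where only the premiR-197 array was well above background, FRZB was at least 3.56-fold higher. TCF7 was higher by 0.35, 0.27 and 0.29 in the same order, which is 1.28-fold, 1.2-fold and 1.22-fold, with a mean of 0.30 ± 0.04. These changes were small and alike on the main probe. The other TCF7 probe gave 1.22-fold, 1.16-fold and 4.78-fold, the last from a level of -1.13 after premiR-197 beside -3.39 after AllStar-NC.

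The remaining antagonists did not move one way after premiR-197. DKK1 was lower in A549 by 1.02 and higher in PC14 and PC14CDDP by 1.53 and 1.22. The ratios of SFRP1 were 0.17, 0.18 and -1.04, and those of DKK3 were -0.20, 0.26 and 0.03, in the order A549, PC14, PC14CDDP. WNT5A was -0.18, -1.03 and -0.63, WNT7B 0.18, -0.42 and -1.24, RSPO3 0.45, -0.13 and -0.62, and AXIN2 -0.85, 0.11 and -0.42 in the same order. Of these 7 genes, WNT5A alone had the same sign in all 3 lines, at 0.884-fold in A549, 0.489-fold in PC14 and 0.647-fold in PC14CDDP.

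After LNA-miR-197, DKK3 and TCF7 were lower than after LNA-miR-NC in all 3 lines. They were the 2 of the 9 genes called by limma at an adjusted p under 0.05, both lower, beside 3.85% of all genes called lower and 3.88% called higher. DKK3 fell to 0.564-fold, 0.695-fold and 0.636-fold of its control in A549, PC14 and PC14CDDP, a mean log2 ratio of -0.67 ± 0.15 (SD, n = 3 lines; SE 0.11; limma adjusted p = 0.0218). TCF7 fell to 0.719-fold, 0.711-fold and 0.584-fold in that order, a mean of -0.58 ± 0.17 (SE 0.11; limma adjusted p = 0.0258). The LNA-miR-197 array was the lowest of the 4 arrays of its line in each line for these genes (2 of 9), as it was for 11.6% of all genes tested.

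The probes of these genes differed in how far they shared the change. The other TCF7 probe was lower in each line as well, with ratios of -0.27, -0.51 and -0.84 (mean -0.54 ± 0.29). The other DKK3 probe was lower by 0.56 in A549 and by 0.25 in PC14, and 4.74-fold higher in PC14CDDP, so that its mean was 0.48 ± 1.54. With the mean of the probes of a gene in place of the brightest one, 0 of the 9 genes were called by limma, TCF7 standing at -0.56 (limma adjusted p = 0.192) and DKK3 at -0.09 (limma adjusted p = 0.875). The calls were also lost when A549, PC14 or PC14CDDP was left out (0 of 9 each time) and when the cell line was not used as a replicate block (0 of 9), with limma adjusted p values between 0.00404 and 1 for DKK3 and between 0.0097 and 1 for TCF7 over all alternatives.

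**Figure D3:**
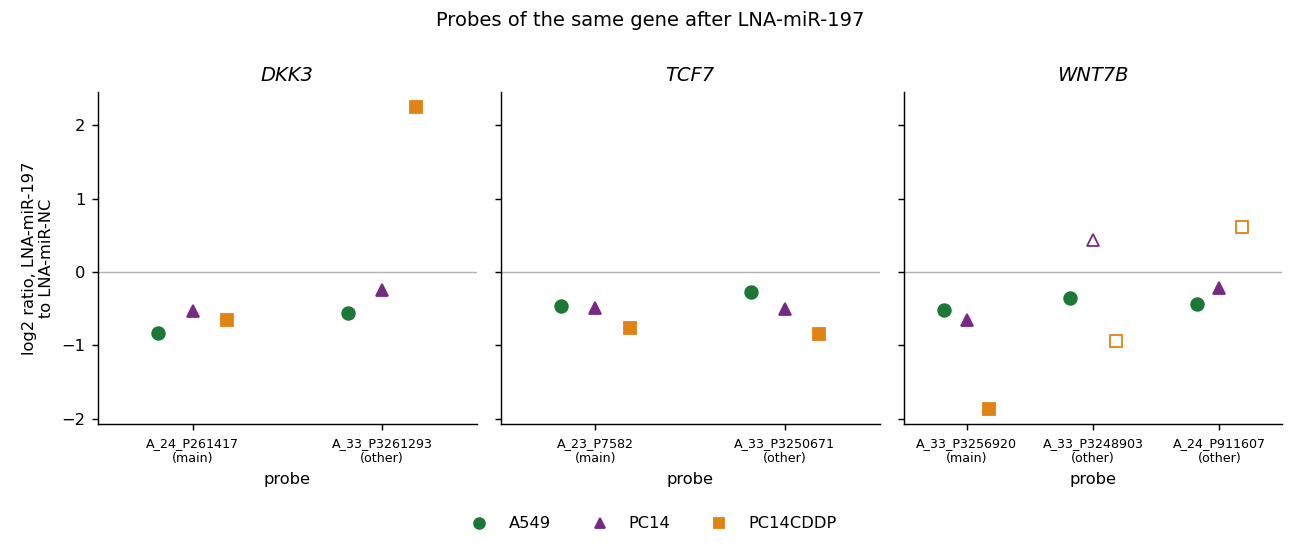
Log2 ratio of LNA-miR-197 to LNA-miR-NC (y axis) on each probe of DKK3, TCF7 and WNT7B (x axis), with 1 point for each line. Open points rest on at least 1 array not well above background. The TCF7 probes lie below 0 in each line, whereas the other DKK3 probe lies at 2.25 in PC14CDDP.

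WNT7B was lower by 0.52, 0.65 and 1.87 after LNA-miR-197 in A549, PC14 and PC14CDDP. Its mean of -1.01 ± 0.74 (SE 0.32) was not called (limma adjusted p = 0.0877), although it was lower by at least 1.2-fold in all 3 lines like DKK3 and TCF7, which made 3 of 9 genes beside 7.93% of all genes. In A549, where its other probes were also well above background, they were lower by 0.35 and 0.43. One of them, A_24_P911607, was well above background on both PC14 arrays too. It was lower by 0.22 there (0.856-fold), short of the 1.2-fold met by the main probe. FRZB was lower in A549 by 1.82 and higher in PC14 and PC14CDDP by 1.22 and 2.36, and all 6 of these arrays were well above background (mean 0.58 ± 2.16; limma adjusted p = 0.711). That mean was -0.30 without PC14CDDP and 1.79 without A549. The other 5 genes were not called, with limma adjusted p values from 0.253 for SFRP1 to 0.859 for DKK1. WNT5A was among them, with at least a 2.39-fold lower level in PC14, where only its control array was well above background.

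The control oligonucleotides were compared with each other as a background for these changes. LNA-miR-NC against AllStar-NC shares the AllStar-NC arrays with the premiR-197 comparison and the LNA-miR-NC arrays with the LNA-miR-197 comparison. Of the 9 genes 0 were called by limma, beside 0.632% of all genes, and 1 had an unadjusted p under 0.05, beside 13.8% of all genes. That gene was FRZB, which was put forward on a change measured against these same AllStar-NC arrays, so its values are a description. It was at least 15.3-fold higher in A549 and at least 6.78-fold higher in PC14CDDP after LNA-miR-NC, in both of which its AllStar-NC array was not well above background, and 2.72-fold higher in PC14. Its mean log2 ratio of 3.46 ± 1.79 uses the 2 AllStar-NC readings below background as they stand, and became 1.00 with normexp background correction. FRZB was also the 1 gene of 9 higher by at least 1.2-fold in all 3 lines, beside 4.69% of all genes. TCF7 and DKK3 had mean ratios of -0.02 ± 0.08 and -0.13 ± 0.11, and the limma adjusted p of the 8 genes other than FRZB ran from 0.635 to 0.995.

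The genes whose levels ran most like those of FRZB over the 12 arrays were ADAM32 (Pearson's r = 0.961), PHEX (0.927), CDK5R1 (0.925), the transcript ENST00000418620 (0.922) and ACTA1 (0.914). These are the highest of 24857 correlations over arrays that share 3 lines and 4 transfections, and they are given as a description.

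A further 96 genes of the pathway were listed by role, of which 77 were tested. The list was written with earlier results of these data known, but with no look at the values of its genes. After premiR-197, 0 of 77 were called by limma, beside 0.217% of all genes, and 18 had an unadjusted p under 0.05 (23.4%, beside 16.2% of all genes). Nearest to the threshold were CTNNBIP1, an inhibitor of β-catenin (mean log2 ratio -1.12; limma adjusted p = 0.0663), SP5, a target gene (-0.98; limma adjusted p = 0.0711), and MYC, also a target (0.66; limma adjusted p = 0.0824), which are named here after their values were seen. SP5 was well above background on 2 of 3 premiR-197 arrays and on 1 of 4 A549 arrays. Its ratios were -1.51 in A549, -0.75 in PC14 and -0.69 in PC14CDDP, so the mean uses a reading below background. In the comparison of LNA-miR-NC with AllStar-NC 0 of 77 were called by limma and 10 had an unadjusted p under 0.05 (13%, beside 13.8% of all genes). The median log2 ratio of the 77 genes was 0.06 after premiR-197 and -0.05 for LNA-miR-NC, beside 0.02 and -0.04 for all genes.

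After LNA-miR-197, 4 of the 77 were called by limma, 1 higher and 3 lower. WNT3, a canonical ligand, rose by 1.23 (SE 0.22; limma adjusted p = 0.0239), with ratios of 0.57, 1.28 and 1.85 in A549, PC14 and PC14CDDP. LRP5, a WNT co-receptor, fell by 0.82 (SE 0.13; limma adjusted p = 0.0212), the lines giving -0.71, -0.74 and -1.02. PPARD, a nuclear receptor counted among the targets, fell by 0.59 (limma adjusted p = 0.0340), and DVL3, a Dishevelled protein that relays the signal from Frizzled, fell by 0.41 (limma adjusted p = 0.0427). The share called, 5.19%, was below that of all genes, 7.73%, and all 4 calls were lost when any 1 line was left out (0 of 77 each time).

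**Figure D4:**
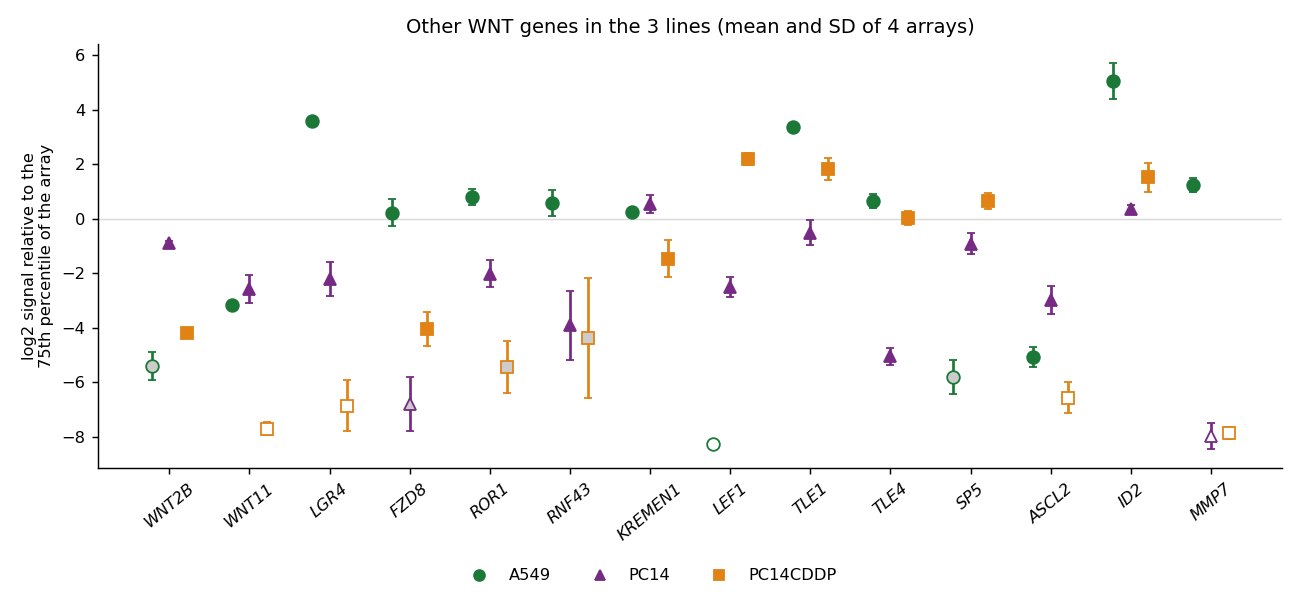
Log2 level, as signal over the array's 75th percentile (y axis), of 14 other WNT genes (x axis) in A549, PC14 and PC14CDDP, as the mean and SD of 4 arrays. Filled points were well above background on 4 of 4 arrays, grey ones on some and white ones on 0. LEF1 is white in A549, WNT11, LGR4 and ASCL2 are white in PC14CDDP, and MMP7 is white in PC14 and PC14CDDP.

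Limma called many more genes between lines than between transfections, in the pathway as among all genes tested. Of all genes, 48.5% were called between PC14CDDP and PC14 and 68.2% between A549 and PC14, beside at most 7.73% between transfections. Between PC14CDDP and PC14, limma called 19 of the 77 higher and 27 lower, beside 25.1% and 23.3% of all genes, and the lower ones were 35.1% of the 77. By role, 11 of 16 receptors were lower and 2 higher, 4 of 7 antagonists were lower and 0 higher, and 6 of 16 targets were higher and 2 lower. Among receptors, FZD4 was lower by 2.81 (SE 0.19; limma adjusted p = 1.34e-05). ROR1, a receptor of WNT5A, was lower by 3.43 (SE 0.24; limma adjusted p = 1.65e-05), though well above background on 3 of 4 PC14CDDP arrays. LGR4, an R-spondin receptor like LGR5, was well above background on 0 of 4 PC14CDDP arrays and at least 12.5-fold higher in PC14 (limma adjusted p = 1.98e-05).

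Of 10 ligands, 3 were higher and 3 lower in PC14CDDP. WNT2B was lower by 3.28 (SE 0.19; limma adjusted p = 5.97e-06), and WNT11 was at least 9.7-fold higher in PC14, being below background on all 4 PC14CDDP arrays. WNT7A, a relative of WNT7B, was higher by 1.77 (SE 0.35; limma adjusted p = 0.00319). KREMEN1, which removes LRP co-receptors together with DKK1, was lower by 2.0 (SE 0.25; limma adjusted p = 0.000308). The antagonists SFRP4 and SOST were also called lower, each by 2.07 on their readings, but were well above background on 0 of 4 PC14CDDP arrays. On the nuclear side, LEF1, a partner of β-catenin related to TCF7, was higher in PC14CDDP by 4.69 (SE 0.14; limma adjusted p = 2.00e-07), and the corepressors TLE4 and TLE1 by 5.09 and 2.33. The target SP5 was higher by 1.59 (SE 0.15) and the target ASCL2 at least 7.3-fold lower.

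Between A549 and PC14, 28 of the 77 were called higher and 32 lower by limma, beside 35.8% and 32.4% of all genes. FZD8, a Frizzled receptor, was higher in A549 by 7.03 (SE 0.46; limma adjusted p = 3.56e-06), though well above background on 2 of 4 PC14 arrays, and LGR4 was higher by 5.81 (SE 0.34; limma adjusted p = 1.93e-06). RNF43, a ligase that removes Frizzled receptors and is opposed by R-spondins, was higher by 4.49 (SE 0.64; limma adjusted p = 0.000331). SFRP4 was higher by 3.20 (SE 0.34), though well above background on 3 of 4 PC14 arrays. LEF1 was well above background on 0 of 4 A549 arrays and at least 12.5-fold higher in PC14 and at least 322-fold higher in PC14CDDP. Of 11 nuclear factors, 5 were higher and 4 lower in A549, and the corepressors TLE4 and TLE1 were higher by 5.7 and 3.88. Of 10 ligands, 3 were higher and 4 lower. WNT2B was lower in A549 by 4.52, where 3 of 4 arrays were well above background. Of the targets, SP5 was lower in A549 by 4.89, where 1 of 4 arrays was well above background, ID2 was higher by 4.70, and MMP7, a matrix protease, was at least 183-fold higher than in PC14. WLS, which carries ligands to the surface, was lower in A549 by 2.76 (SE 0.12; limma adjusted p = 3.23e-07).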

How the data were processed

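RNA of 3 lines after 4 transfections was measured on 12 one-colour Agilent arrays. The authors deposited Feature Extraction 10.7.3.1 output (hg19), with each spot's mean, local background and processed intensity, the last background-subtracted and detrended but not scaled between arrays, and a table of intensity equal to the processed signal on all 62976 spots of each array. The main text names Student's t-test in general. Its supplementary methods were not read here, and no normalization of these arrays was found in the sources used here. There were 0 columns of other samples.

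Control spots and outlier spots were left out, spots of a probe were averaged, and log2 signal minus the log2 of the array's 75th percentile was used. Probes with a missing value (106) were left out. Probes well above background on 3 or more arrays were kept (33714), and each gene was represented by its brightest probe on average (24857 genes). RefSeq of GRCh38.p14 matched 28174 of 50599 probes by accession, and other probes kept the file's names. All 12 arrays entered 1 model with transfection and cell line as terms (limma 3.58.1, R 4.3.3), with Benjamini-Hochberg adjustment over all genes. The line pairs a treated array with its control, and deviations of arrays of the same line from the transfection means correlated across genes with r from 0.848 to 0.949. The script was tested on simulated data. The number of arrays limits the precision. The labels do not say that cultures were repeated, so p-values measure the spread between these arrays.

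The 10 genes and the list of other WNT genes were chosen with earlier results of these data known. FRZB was put forward with its change after premiR-197 in view, and the other WNT genes were listed with no look at their values. Named among the others are, for each comparison of transfections, up to 5 called genes with the largest ratio. For each comparison of lines they are up to 3 called genes of each role, with fewer or none for some roles, such as the intracellular genes. Alternatives were normexp background correction with an offset of 50, quantile normalization, the deposited table, no filter, probes detected on all 12 arrays only, averaged probes of a gene, no replicate block, only the arrays compared, the slide as block, a trend and robust eBayes prior, each line or transfection left out, and the methods' t-test. Python 3.11.15 with pandas 2.3.3, numpy 2.4.6 and matplotlib 3.10.9 was used.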

Additional observations from a re-analysis of the deposited data

Results flagged for a closer look

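In 6 of 27 combinations of gene and comparison, at least 1 line was higher by 1.2-fold or more and another lower by 1.2-fold or more, on arrays well above background. Opposite signs of any size were seen in 16 of 27. Each line has 1 array per transfection, so none of these differences was tested. FRZB after LNA-miR-197 was higher in PC14CDDP by 2.36 and lower in A549 by 1.82, a gap of 4.18 on the log2 scale. DKK1 after premiR-197 was higher in PC14 by 1.53 and lower in A549 by 1.02, a gap of 2.55. DKK1 also differed between PC14 and A549 after LNA-miR-197 (gap 1.46) and between PC14CDDP and A549 for LNA-miR-NC against AllStar-NC (gap 1.75). RSPO3 after premiR-197 was higher in A549 by 0.45 and lower in PC14CDDP by 0.62, a gap of 1.07. AXIN2 for LNA-miR-NC against AllStar-NC was higher in PC14 by 0.83, where its signal was near the detection limit, and lower in A549 by 0.56, a gap of 1.39.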

How the results depend on the processing

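For premiR-197, 2 of 9 members moved one way by at least 1.2-fold in all 3 lines, both higher. FRZB, put forward on this change, is 1 of them, with readings below background in A549. The count, taken in either direction, became 0 with normexp, 1 with the filter on all 12 arrays and 1 with the mean of probes. It was 2 to 5 with a line left out (5 without A549), where the rule asks for fewer lines and is easier to meet. The share of all genes was not computed for these settings. For LNA-miR-197, the 2 members called became 1 without the filter and 0 with the mean of probes, without the replicate block, with only the arrays compared, with the slide as block, with the methods' t-test and with each line left out (0 to 0). No member was called for LNA-miR-NC against AllStar-NC in any setting (0 to 0 with a line left out). The members not overlapping between PC14CDDP and PC14 rose from 0 to 2 with the mean of probes and to between 2 and 4 with a transfection left out (4 without LNA-miR-197), and those between A549 and PC14 ranged from 5 to 7. With a transfection left out fewer arrays are compared, so non-overlap is easier to reach. The share of all genes was not computed for these settings either, so the higher counts are no result about the members.

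Of the other 77 WNT genes, the 0 called after premiR-197 became 3 with normexp, 2 with the filter on all 12 arrays and 3 with the trend and robust prior (0 to 0 with a line left out). The 4 called after LNA-miR-197 became 11 with normexp, 11 with the trend and robust prior, 9 with the filter on all 12 arrays, 2 without the filter, and 0 without the replicate block, with only the arrays compared, with the slide as block, with the methods' t-test and with each line left out (0 to 0). For LNA-miR-NC against AllStar-NC 0 were called in every setting. Between PC14CDDP and PC14 the count of 46 ranged from 35 to 49 (38 to 43 with a transfection left out), and between A549 and PC14 that of 60 from 50 to 61 (53 to 55). On the other probe the sign turned for DKK3 between PC14CDDP and PC14 (0.22) and after LNA-miR-197 (0.48). Both turns rest on 1 array, LNA-miR-197 of PC14CDDP, at -0.21 beside -2.30, -2.47 and -2.46 on the other arrays of that line. After LNA-miR-197 the ratios of this probe in A549 and PC14 were -0.56 and -0.25, with the sign of the main probe. The other WNT7B probes read -0.21 and -0.45 between PC14CDDP and PC14, with at least 1 line at background on all 4 arrays, so these are no measured reversal. The causes were not tested. Signal near background limits FRZB, WNT5A and LGR5, and AXIN2 in PC14 and PC14CDDP.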
